A study of Mus musculus with 15 samples.

Results

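Primary hepatocytes of a male stock, kept in serum of conventionally raised male mice (m_pHep_m_ConvR, 3 libraries), were compared with hepatocytes of a female stock kept in serum of conventionally raised female mice (f_pHep_f_ConvR, 2 libraries), so that each stock met serum of its own sex. These 5 libraries were chosen by their labels, out of 15 labelled samples of which 13 have a column of their own in the count table. Replicate 1 of f_pHep_f_ConvR was not used here because 2 columns carry its name. The cells of both stocks came frozen from CD-1 mice, an outbred strain, and were plated at 200000 per well on collagen. They were left for 6 h to attach, in medium with fetal bovine serum, dexamethasone and insulin. They were then covered with Geltrex, a basement membrane matrix, in defined medium with dexamethasone, insulin, transferrin, selenous acid, albumin and linoleic acid. From the following day they were kept for 24 h with 25% mouse serum, and then for 2 h with PBS, the vehicle of growth hormone. None of the groups described here received growth hormone. Cells of the female stock in conventional male serum (f_pHep_m_ConvR, 3 libraries) served as a bridge. The log2 difference between the matched groups is the sum of a stock term (m_pHep_m_ConvR minus f_pHep_m_ConvR, serum held at male) and a serum term (f_pHep_m_ConvR minus f_pHep_f_ConvR, stock held at female). Donor sex and donor stock are the same variable and cannot be told apart. The labels do not say how many animals gave a stock or a serum, or whether replicates were separate cultures, so p-values measure only the spread between libraries that may be technical replicates.

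The liver is one of the most sexually dimorphic organs of the mouse. The pituitary of males releases growth hormone in pulses and that of females almost continuously, and the transcription factor STAT5b carries this pattern to liver genes for major urinary proteins, cytochromes P450 and sulfotransferases. Hepatocytes also make most plasma proteins, which in part respond to cytokines of the serum through the acute phase response. Cells taken into culture lose the pulses and slowly lose liver-specific expression, while serum adds the hormones and cytokines of its donors.

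The male libraries held 34097400 to 37920635 counts and the female libraries 42903075 and 47798248. Y-linked genes summed to 12135 to 14016 counts in the male libraries and to 1 and 2 in the female ones, as the labels have it. Levels are given as CPM, the counts of a gene per 1000000 counts of its library, with library sizes scaled by TMM, a normalisation that assumes most genes are unchanged. Alb, which encodes albumin and defines hepatocytes, took 1.64% to 1.71% of all counts in the male stock and 0.600% and 0.608% in the female stock. Female replicate 2 differed from female replicate 3 in Neat1, a nuclear noncoding RNA, at 2980 and 900.4 CPM, against 459.2 to 688.4 CPM in the male libraries. Gm10800, a repeat-like gene model, stood at 2.44 and 68.5 CPM in the female libraries and at 275.9 to 965.3 CPM in the male ones.

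Markers of other liver cells were low but not absent. Over all autosomal genes tested, 33.9% were called at an adjusted p under 0.05, with 15.9% higher in the male group and 17.9% lower. Of 14 tested markers of sinusoidal endothelial cells, 11 were higher in the male group and 0 lower, and their summed level was 101 to 103 CPM in the male and 50.3 and 62.5 CPM in the female libraries. Cdh5, the cadherin of endothelial junctions, stood at 18.04, 17.80 and 19.11 CPM in the male and at 4.34 and 3.91 CPM in the female libraries, and Pecam1, a platelet and endothelial adhesion protein, differed by 1.80 on the log2 scale. Stab1 (-0.10), Lyve1 (0.41) and Oit3 (0.25) did not pass. Of 11 tested Kupffer cell and macrophage markers only Cd68, a lysosomal protein, was called (0.58), and the list summed to 155 to 175 CPM in the male and 110 and 120 CPM in the female libraries. Clec4f, a lectin that defines Kupffer cells, lay at 2.91 to 3.46 CPM in the male and at 3.22 and 3.19 CPM in the female libraries. Of 14 stellate cell and fibroblast markers 4 were higher (Reln, Rgs5, Hgf and Tagln), with sums of 48.6 to 55.0 and of 32.0 and 42.4 CPM. That count was 2 without female replicate 2. Markers of bile duct cells summed to 101 to 111 CPM in the male and to 116 and 103 CPM in the female libraries, those of lymphocytes to 3.24 to 4.52 and to 1.88 and 1.61 CPM. S100a9 and Camp, markers of neutrophils, were at 0 counts in all 5 libraries. The part that these cells had in the differences below was not tested, and in bulk RNA fewer cells of a type and less RNA per cell cannot be told apart.

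Of 16403 autosomal genes tested, 5554 were called, that is, passed edgeR's quasi-likelihood F test at an adjusted p under 0.05 (33.9%). Of these 2614 were higher in the male group (15.9%) and 2940 lower (17.9%), and the median log2 difference over all genes was -0.012. Every count of list members in the matched comparison is to be read beside these shares. Without female replicate 2, when the single female library left was assumed to vary like the other groups, 3685 were called, with 1802 higher and 1883 lower. With libraries scaled by their totals alone the median shifted to -0.123 and 1878 were higher and 4594 lower, a share of 29.0% higher in place of 47.1%. A called difference of at least 1 on the log2 scale was found in 1353 genes (8.25%), of which 943 were higher (5.75%) and 410 lower (2.5%). At a size of at least 5 the numbers were 19 and 12. The 3 male libraries did not overlap with the 2 female ones in CPM for 9538 genes (58.1%), so that a gap between the groups is common. The stock term held 6109 calls (37.2%), 2918 higher (17.8%) and 3191 lower (19.5%). The serum term held 1480 calls (9.02%), 654 higher (3.99%) and 826 lower (5.04%), a total that was 933 without replicate 1 of f_pHep_m_ConvR.

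**Figure D1:**
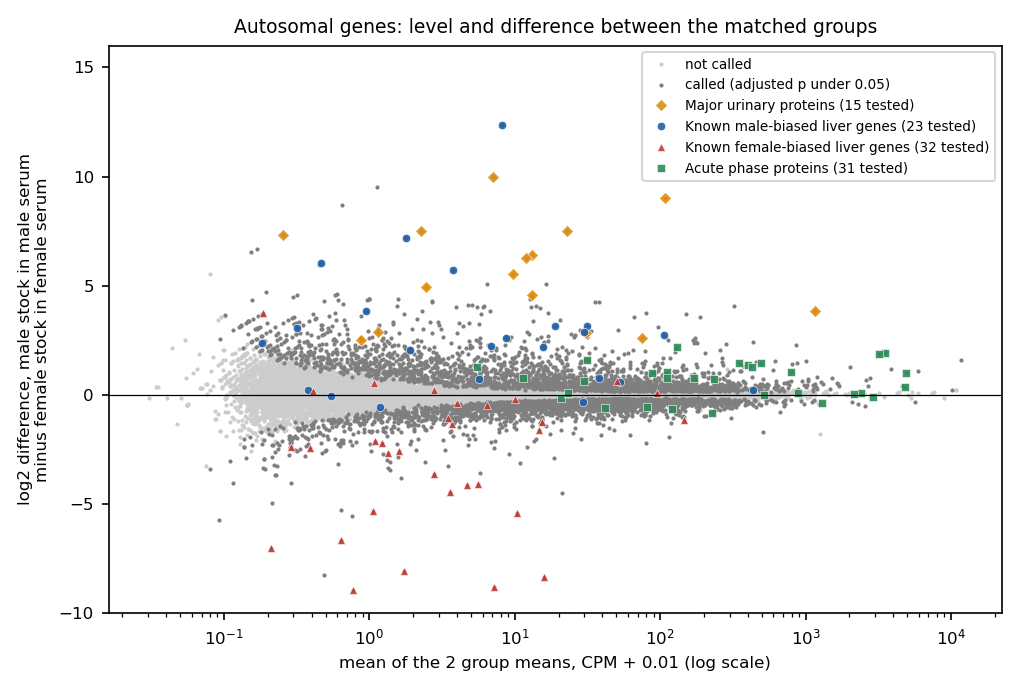
Each point is an autosomal gene, with the mean of the group means in CPM plus 0.01 on a log axis and the log2 difference (male stock in male serum minus female stock in female serum) on the vertical axis. Dark grey points are called at an adjusted p under 0.05. The 15 major urinary proteins lie above 0, from 2.51 to 10, and most known female-biased genes below it.

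Major urinary proteins (Mups) are lipocalins that carry pheromones, made by the liver of adult males far more than by that of females and encoded in a cluster on chromosome 4. All 15 tested Mup genes were higher in the male group, against 15.9% of all genes tested, with a median log2 difference of 5.53, or 4.94 with Mup6, at 0 counts in the female group, set at its bound. The other 6 listed members (Mup4, Mup5, Mup8, Mup11, Mup13 and Mup15) had too few counts to be tested. Together the listed genes summed to 2690, 2680 and 2870 CPM in the male and to 192 and 176 CPM in the female libraries. They were at 169 to 192 CPM in the female stock in male serum. The serum term called 0 of the 15, beside 9.02% of all genes tested. Mup genes are near-identical copies, so reads may be split between them in ways the counts do not show.

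To show how close these copies are, the 250 bases before the RefSeq start (GRCm38.p6) are printed for Mup7 and Mup18, with the longest run of letters that both share in capitals. It is 66 bases long and begins 96 bases before the start of Mup7 and 221 bases before that of Mup18, both read 5′ to 3′ on the gene's strand.
Mup7, chr4:60070476-60070725 (- strand): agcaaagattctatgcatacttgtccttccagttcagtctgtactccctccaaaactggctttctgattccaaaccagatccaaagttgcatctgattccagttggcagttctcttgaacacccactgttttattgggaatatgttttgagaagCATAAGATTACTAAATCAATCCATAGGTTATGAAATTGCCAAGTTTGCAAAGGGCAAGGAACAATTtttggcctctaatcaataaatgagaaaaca
Mup18, chr4:61674095-61674344 (- strand): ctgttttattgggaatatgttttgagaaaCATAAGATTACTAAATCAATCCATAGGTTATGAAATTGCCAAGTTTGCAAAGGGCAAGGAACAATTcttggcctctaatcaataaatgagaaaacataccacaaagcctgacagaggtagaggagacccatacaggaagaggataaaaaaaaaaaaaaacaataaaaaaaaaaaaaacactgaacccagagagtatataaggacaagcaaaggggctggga

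Mup20, which encodes darcin, a male pheromone (mm10 chromosome 4, 62050234 to 62054158), had 209.8, 205.4 and 229.9 CPM in the male libraries and 0.558 and 0.268 CPM in the female ones. The ratio of pooled CPM was 514 (95% interval 376 to 723, counting error only) and the log2 difference 8.996 ± 0.254 (SE, adjusted p 3.58e-13). The female stock stayed at 0.0556 to 0.430 CPM when it was given male serum. Mup3 was the most abundant copy also per length, with 2131, 2123 and 2287 CPM in the male and 157.8 and 146.0 CPM in the female libraries. Its mean level was 2042 CPM per kb of exon in the male and 142.2 in the female group, and the ratio of 14.3 (95% interval 14.1 to 14.6) was far smaller than that of Mup20. Mup7 reached 1465 counts in the male group and 1 in the female group. Mup1, Mup2, Mup9 and Mup10 differed least, by 2.51, 2.89, 2.85 and 2.63. The copies thus spanned log2 differences from 2.51 to 10, with every male library above every female library for each of the 15. Groups without overlap, in either direction, were found for 58.1% of all autosomal genes tested.

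**Figure D2:**
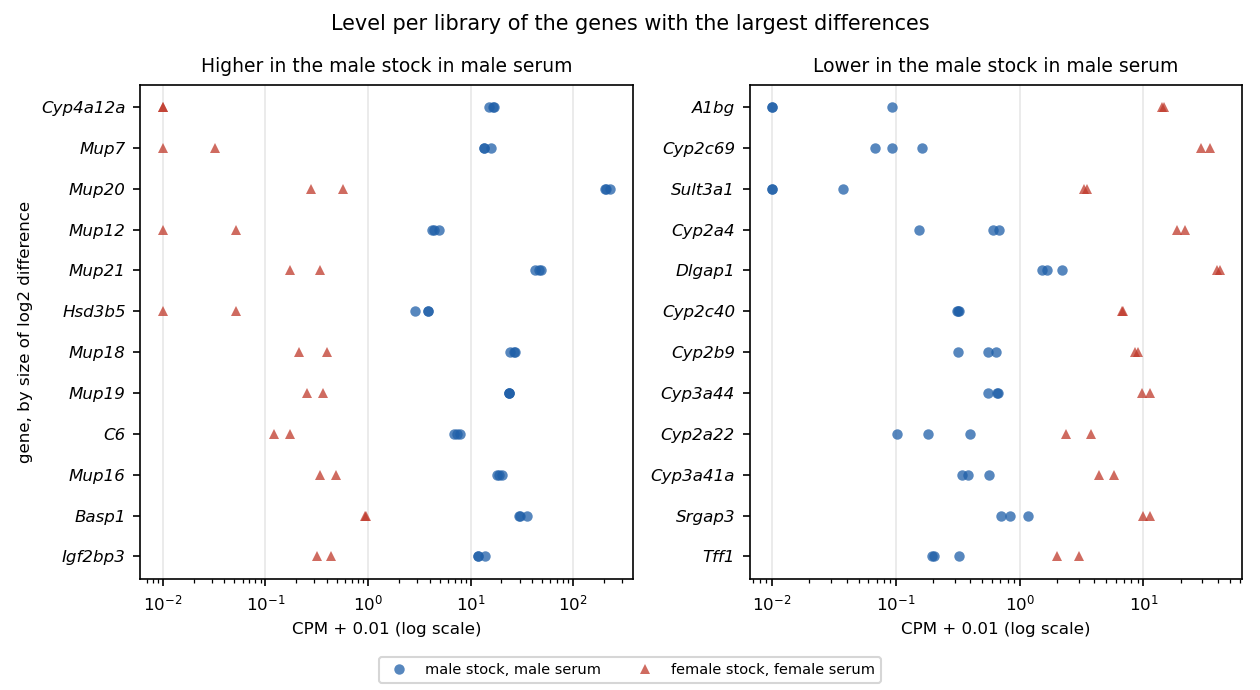
Level of the 12 genes with the largest difference in each direction, in CPM plus 0.01 on a log axis, with 1 point per library (circles, male stock in male serum, n = 3; triangles, female stock in female serum, n = 2). The groups do not overlap for any gene shown, which the choice of the genes required, and 7 of the 12 genes on the left are Mups.

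Other known male-biased liver genes followed. Of 23 tested members 18 were higher and 1, Bcl6, was lower, with a median of 2.37. Cyp4a12a, a fatty acid hydroxylase that makes the vasoactive lipid 20-HETE (chromosome 4, 115299046 to 115332815), had 16.7, 17.0 and 15.0 CPM in the male libraries and 0 counts in both female ones. With the female level set to 3 counts for both libraries together, its level was 505-fold higher. The 95% interval of the ratio began at 410. Hsd3b5, a ketosteroid reductase of male liver, had 3.84, 3.87 and 2.88 CPM against 0.0413 and 0 CPM, on 366 and 2 counts, a ratio of 165 (95% interval 45.2 to 1360). C6, a component of the membrane attack complex, stood at 6.88, 7.42 and 7.93 CPM and at 0.165 and 0.112 CPM (5.70 ± 0.360, adjusted p 6.90e-09). Elovl3, which lengthens fatty acids, had 1.60, 1.40 and 2.25 CPM against 0.0826 and 0.156 CPM (3.85 ± 0.447). Cyp7b1, an oxysterol hydroxylase, differed by 0.71, and lost its call without female replicate 3 (0.54, adjusted p 0.110). Ugt2b38 (2.37), Cib3 (0.21), Cspg5 (-0.05) and Susd4 (-0.57) did not pass. The same list held 18 higher and 1 lower in the stock term, beside 17.8% and 19.5% of all genes tested. It held 2 higher and 2 lower in the serum term, beside 3.99% and 5.04% of all genes tested.

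Beyond the listed genes, Basp1, a membrane-bound protein best known from neurons, stood at 29.8, 30.2 and 35.5 CPM in the male libraries and at 0.929 and 0.938 CPM in the female ones (5.09 ± 0.167). Igf2bp3, an RNA-binding protein of fetal tissues, had 11.8, 11.7 and 13.7 CPM against 0.310 and 0.424 CPM; 18.7% of its exons overlap Malsu1, and counts of overlapping genes may hold reads of both. In both genes the lowest male library lay far above the highest female one. A lack of overlap was required for their choice.

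Known female-biased genes of the liver were mostly lower in the male group: 24 of 32 tested members were lower and 2 higher, against 17.9% and 15.9% of all genes, with a median of -2.30. The 2 that were higher, Cyp17a1 (3.75) and Sult1e1 (0.62), make androgens and inactivate oestrogens. Cyp17a1 had only 0.277, 0.302 and 0.404 CPM in the male libraries, and it lost its call without female replicate 2 (adjusted p 0.100). A1bg, a plasma glycoprotein of the immunoglobulin family (chromosome 15, 60896859 to 60923012), had 0, 0.0824 and 0 CPM in the male libraries and 14.6 and 14.1 CPM in the female ones. On 3 and 1336 counts this was a ratio of 495 towards the female group (95% interval 169 to 2400). Cyp2c69, a cytochrome P450, had 0.154, 0.0824 and 0.0576 CPM against 34.4 and 29.0 CPM, a ratio of 330 (179 to 688). Sult3a1, an amine sulfotransferase, had 3.33 and 3.51 CPM in the female libraries, 318 counts in all, and 1 count in the male group. The male libraries were at or near 0 for these 3 genes, while the female stock held them at like levels in either serum: in male serum A1bg stood at 12.8 to 20.0, Cyp2c69 at 28.5 to 36.7 and Sult3a1 at 2.92 to 3.37 CPM.

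STAT5b, the factor that carries the sex-specific growth hormone pattern, binds as a dimer to sites of the form TTCNNNGAA, which reads the same on both strands. Of the 39 genes named for the size of their difference or of its 2 terms, 30 had a RefSeq promoter entry, too few for a share of the set. The letters were found in the 250 bases before the start of A1bg, Sult3a1, Nox4, Hamp and Fga. Over all 27025 genes in the RefSeq table, 8.13% held such a match in a window of this length, so a match is a description of the sequence and not a site shown to be used. The windows of A1bg and Sult3a1, the leading female genes with a match, are given with the match in capitals (GRCm38.p6, 5′ to 3′ on the gene's strand). It begins 84 bases before the RefSeq start of A1bg and 109 bases before that of Sult3a1. In GENCODE, A1bg reaches further 5′, to 60923012, so its window here lies inside that gene model.
A1bg, chr15:60921271-60921520 (- strand): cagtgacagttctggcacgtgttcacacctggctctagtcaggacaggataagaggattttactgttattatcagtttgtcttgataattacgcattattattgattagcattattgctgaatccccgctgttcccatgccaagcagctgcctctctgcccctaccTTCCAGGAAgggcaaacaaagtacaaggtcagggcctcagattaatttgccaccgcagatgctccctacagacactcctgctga
Sult3a1, chr10:33857472-33857721 (+ strand): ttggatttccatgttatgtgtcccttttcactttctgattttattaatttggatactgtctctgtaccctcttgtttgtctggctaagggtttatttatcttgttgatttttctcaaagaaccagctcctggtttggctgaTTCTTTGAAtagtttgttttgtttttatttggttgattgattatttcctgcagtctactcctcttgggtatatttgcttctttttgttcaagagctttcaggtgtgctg

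Cyp2a4, a steroid hydroxylase, had the largest called serum term in size among the 12 genes with the largest falls. It had 0.676, 0.604 and 0.144 CPM in the male libraries, 9.78 to 10.3 CPM in the female stock in male serum, and 18.6 and 21.7 CPM in the female stock in female serum. Its stock term was -4.40 and its serum term -1.01, both called (adjusted p 2.83e-10 and 0.000843). Cyp2c40, Cyp3a44, Cyp3a41a and Cyp2b9, other female-biased P450s, differed by -4.44, -4.08, -3.60 and -4.12, and none of their serum terms was called (-0.35 to 0.10). Dlgap1, a scaffold protein of synapses that is not on the list, had 2.18, 1.51 and 1.64 CPM against 39.1 and 41.3 CPM, on a log2 difference of -4.50 ± 0.109. Srgap3, a regulator of the cytoskeleton, differed by -3.55 and Tff1, a secreted trefoil peptide, by -3.42. Other gene models overlap 31.4% of the exons of Tff1 and 16.5% of those of A1bg, so some of their counts may belong elsewhere. Each of these genes had every male library below every female library, which the choice of the genes required.

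Enzymes that clear drugs and steroids differed by family. Of 18 tested glucuronosyltransferases, which attach glucuronic acid, 16 were higher in the male group and 0 lower (median 0.92). Ugt2b1 had 26.8, 27.9 and 32.8 CPM in the male and 4.79 and 4.22 CPM in the female libraries (2.69 ± 0.123). The Ugt1a members share exons, so their 0.74 to 0.86 are not independent values. Of 13 carboxylesterases, which cleave esters, 9 were higher and 2 lower (Ces2g, -1.06, and Ces2e, -0.39). Ces3a, a lipase of the endoplasmic reticulum, stood at 300.6, 296.0 and 295.9 CPM against 54.3 and 42.8 CPM, a log2 difference of 2.62 ± 0.108. Of 23 glutathione S-transferases, 11 were higher and 3 lower: Gstt3 (-2.15), Gstp2 (-0.77) and Gsto1 (-0.27). Gsta1 differed by 1.43, Gsta2 by 1.78 and Gstm3 by 1.77.

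Of 14 tested sulfotransferases 7 were lower and 3 higher (Sult2a8, Sult1d1 and Sult1e1). The summed level of the list was higher in the male group, at 177, 171 and 198 CPM against 115 and 123 CPM. Sult2a2 and Sult2a5, which sulfonate steroids and bile acids, had 0 counts in the 3 male libraries. The female libraries gave them 141 and 87 counts. With the male level set to 3 counts over the group, their levels were 52.3-fold and 32.2-fold lower in the male group. The 95% intervals of these ratios began at 41.9 and 25.7. Sult2a1 had 1 count against 115. These genes are close copies of each other, at 2.05 CPM or less in every library of the comparison, and with a minimum of 1 CPM on the mean the list held 3 lower calls.

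Among 35 tested members of the Cyp2 family, 15 were higher and 12 lower, so that its median of 0.30 stood for genes going both ways. Cyp2f2, of the periportal zone, stood at 24.0, 22.4 and 26.2 CPM against 2.56 and 2.01 CPM (3.40 ± 0.222), whereas Cyp2a22 (-3.78) and Cyp2c37 (-3.11) were lower. Targets of CAR and PXR, the nuclear receptors that sense foreign compounds, were split in the same way, with 16 higher and 9 lower of 31. Cyp2b10, the classic CAR target, had 36.7, 34.3 and 30.6 CPM in the male and 19.9 and 18.6 CPM in the female group, with 5.62 to 7.12 CPM in the female stock in male serum. Its matched difference of 0.82 ± 0.113 was the sum of a stock term of 2.41 and a serum term of -1.59. Of 24 steroid-metabolising enzymes, 13 were higher and 1, Hsd17b7 (-0.36), lower, a call that was lost without male replicate 1 or female replicate 2. Hsd11b1, which reactivates glucocorticoids, had 116.5, 116.1 and 117.0 CPM against 41.5 and 37.4 CPM.

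**Figure D3:**
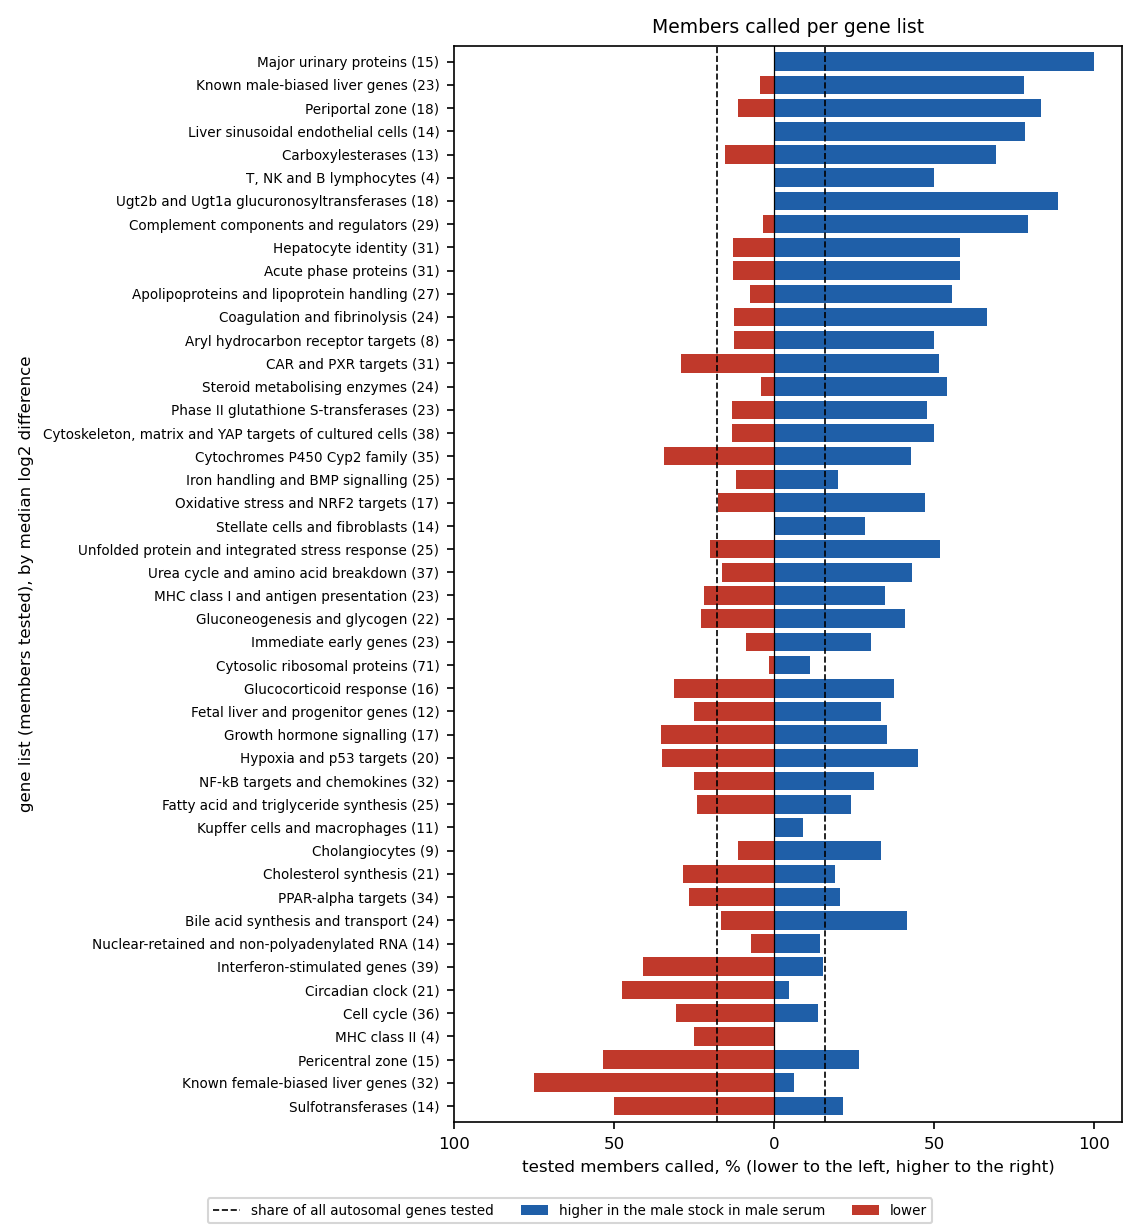
Share of the tested members of each gene list called higher (blue, to the right) or lower (red, to the left) in the male stock in male serum, in percent, with lists ordered by their median log2 difference and the number tested in brackets. Dashed lines give the shares over all autosomal genes, 15.9% higher and 17.9% lower. Major urinary proteins are at the top, and sulfotransferases and known female-biased genes at the bottom.

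Of 31 tested genes of hepatocyte identity 18 were higher and 4 lower, with a median of 0.79. Alb (chromosome 5, 90460897 to 90476602) had 17940, 17090 and 18070 CPM in the male and 5919 and 5824 CPM in the female libraries, a log2 difference of 1.59 ± 0.0767 (adjusted p 2.40e-10). The 5 copies of alpha-1-antitrypsin, a protease inhibitor of plasma, differed by 2.21 to 3.12. Of them Serpina1b had 1461, 1392 and 1442 CPM against 303.4 and 284.0 CPM. Among the lower members, named after their values were seen, were the transcription factors Foxa2 (-1.27 ± 0.0910), Hnf4a (-0.57 ± 0.0818) and Cebpa (-0.29 ± 0.0778). Hnf4a, a master regulator of liver genes, had 238.6, 227.5 and 220.1 CPM in the male and 345.6 and 332.8 CPM in the female libraries, so that here too the groups did not overlap. Foxa3, another such factor, was higher by 0.28.

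Complement, the plasma cascade that tags and lyses microbes, had 23 of 29 tested members higher and 1 lower (median 0.84). The 4 largest differences were in its terminal complex: beside C6, C9 had 68.6, 73.8 and 72.5 CPM against 3.86 and 3.57 CPM (4.27 ± 0.104), C8a differed by 3.17 and C8b by 2.88. C3, the central component, did not pass (-0.07). The 1 lower gene was Mbl2, a mannose-binding lectin that starts the cascade, at 252.3, 230.9 and 237.1 CPM against 809.9 and 753.8 CPM. Its close relative Mbl1 was higher by 1.64. Of 24 coagulation genes, 16 were higher and 3 lower. Plg, plasminogen, differed by 1.37 and F12, the first factor of the contact pathway, by 1.27. Plat, the tissue activator of plasminogen, was lower, with 32.1, 28.4 and 21.4 CPM against 119.1 and 75.1 CPM, on a stock term of -0.52 and a serum term of -1.32, both called. Plau (-0.89), the other activator, and Serpind1 (-0.72) were also lower.

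Apolipoproteins, the proteins of lipid-carrying particles, had 15 of 27 members higher and 2 lower, Abca1 (-0.95) and Scarb1 (-0.22), an exporter and a receptor of cholesterol. Apoc3, an inhibitor of lipoprotein lipase, stood at 426.7, 388.8 and 420.0 CPM against 107.0 and 93.6 CPM (2.04 ± 0.112). Apoa5 differed by 1.98 and Apoa2 by 1.56, while Apob, the large structural protein of VLDL, did not pass (-0.13). The lower count was 1 without male replicate 1 or replicate 2, 4 by library totals or in a fit of only the matched groups, and 5 without the low-count filter.

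Acute phase proteins, which the liver secretes under interleukin 6 and interleukin 1, had stock and serum terms that opposed each other. In the matched comparison 18 of 31 tested members were higher and 4 lower, with a median of 0.76. In the stock term 29 were higher and 0 lower (median 1.501), beside 17.8% and 19.5% of all genes tested. In the serum term 0 were higher and 19 lower (median -0.57), beside 3.99% and 5.04% of all genes tested. The terms share the f_pHep_m_ConvR libraries, so a high or low value there moves them in opposite directions, and their opposition is given by values and not as a test. The summed level was 36200 to 38400 CPM in the male group, 13200 to 15400 CPM in the female stock in male serum, and 25300 and 21400 CPM in the female stock in female serum. The count of lower members in the matched comparison was 2 without female replicate 2.

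Some members stayed far apart. Orm2, an acid glycoprotein, had 214.1, 208.2 and 225.5 CPM in the male and 47.5 and 45.6 CPM in the female libraries (2.22 ± 0.0740). Serpina3k, a kallikrein inhibitor, had 5072, 4869 and 5103 CPM against 1526 and 1197 CPM, with 1138 to 1338 CPM in the female stock in male serum. Lrg1, a leucine-rich glycoprotein, differed by 1.59. In these genes the stock term (2.38, 2.01 and 2.15) was the larger one, and no serum term was called. The 4 lower members were Steap4 (-0.80), a metalloreductase, Apcs (-0.63), serum amyloid P, Saa4 (-0.57) and Saa3 (-0.55), serum amyloids.

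Others met at like levels. Hp, haptoglobin, which binds free haemoglobin (chromosome 8, 109575128 to 109579172), had 2613, 2257 and 2573 CPM in the male group and 2660 and 2042 CPM in the female group. In the female stock in male serum it had 638.0, 779.5 and 694.8 CPM. The matched difference was 0.08 ± 0.196 (95% interval -0.34 to 0.49), on terms of 1.82 and -1.74. Its sign turned without female replicate 3 (-0.10) and with libraries scaled by their totals (-0.03). Crp, C-reactive protein, differed by -0.15 ± 0.150 (interval -0.47 to 0.17) and by 0.07 without female replicate 2. Acnat2, a peroxisomal acyltransferase outside the list, differed by -0.09 (terms 1.64 and -1.73). The groups overlapped in these 3 genes, and a missed threshold does not show that the levels were equal.

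Fga, the fibrinogen alpha chain (chromosome 3, 83026076 to 83033627), had 1159, 1108 and 1120 CPM in the male group, 290.6, 424.4 and 330.6 CPM in the female stock in male serum, and 1490 and 1404 CPM in the female stock in female serum. Its terms were 1.70 and -2.05 and the matched difference -0.36 ± 0.198 (adjusted p 0.185), which passed in a fit of only the matched groups (-0.35, adjusted p 0.000825) and without the low-count filter (-0.37, adjusted p 3.46e-06). Hamp, hepcidin, the hormone that lowers plasma iron (chromosome 7, 30942368 to 30944032), had 150.5, 133.4 and 137.7 CPM, 17.5, 29.8 and 14.3 CPM, and 99.0 and 65.9 CPM in the same order. Its terms were 2.78 and -2.01. The matched difference of 0.77 ± 0.301 missed the threshold (adjusted p 0.0608), and was 1.09 without female replicate 2. It passed in a fit of only the matched groups (0.775, adjusted p 0.000643) and without the low-count filter (0.754, adjusted p 1.28e-16). In both fits the log2 differences of Fga and Hamp stayed close to the main ones, while the adjusted p-values fell. With 2 female libraries such p-values are not read as stronger evidence, and the cause of their fall was not tested. The male libraries lay above the female ones for Hamp and below them for Fga.

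The liver answers interleukin 6 through STAT3, which binds the same form of site. The windows of 250 bases before the starts of Hamp and Fga, the acute phase genes with opposed terms that hold a match, are printed with TTCNNNGAA in capitals (GRCm38.p6, 5′ to 3′ on the gene's strand). The match begins 97 bases before the RefSeq start of Hamp and 234 bases before that of Fga.
Hamp, chr7:30944030-30944279 (- strand): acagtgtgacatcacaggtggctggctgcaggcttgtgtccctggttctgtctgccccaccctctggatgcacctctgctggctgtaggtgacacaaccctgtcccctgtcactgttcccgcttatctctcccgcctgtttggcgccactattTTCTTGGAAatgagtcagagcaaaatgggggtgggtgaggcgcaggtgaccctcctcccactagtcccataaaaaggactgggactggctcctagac
Fga, chr3:83025903-83026152 (+ strand): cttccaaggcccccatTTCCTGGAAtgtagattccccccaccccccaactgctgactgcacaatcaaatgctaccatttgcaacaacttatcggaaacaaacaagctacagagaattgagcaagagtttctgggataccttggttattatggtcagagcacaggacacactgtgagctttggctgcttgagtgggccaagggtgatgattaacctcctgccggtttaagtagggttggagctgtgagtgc

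**Figure D4:**
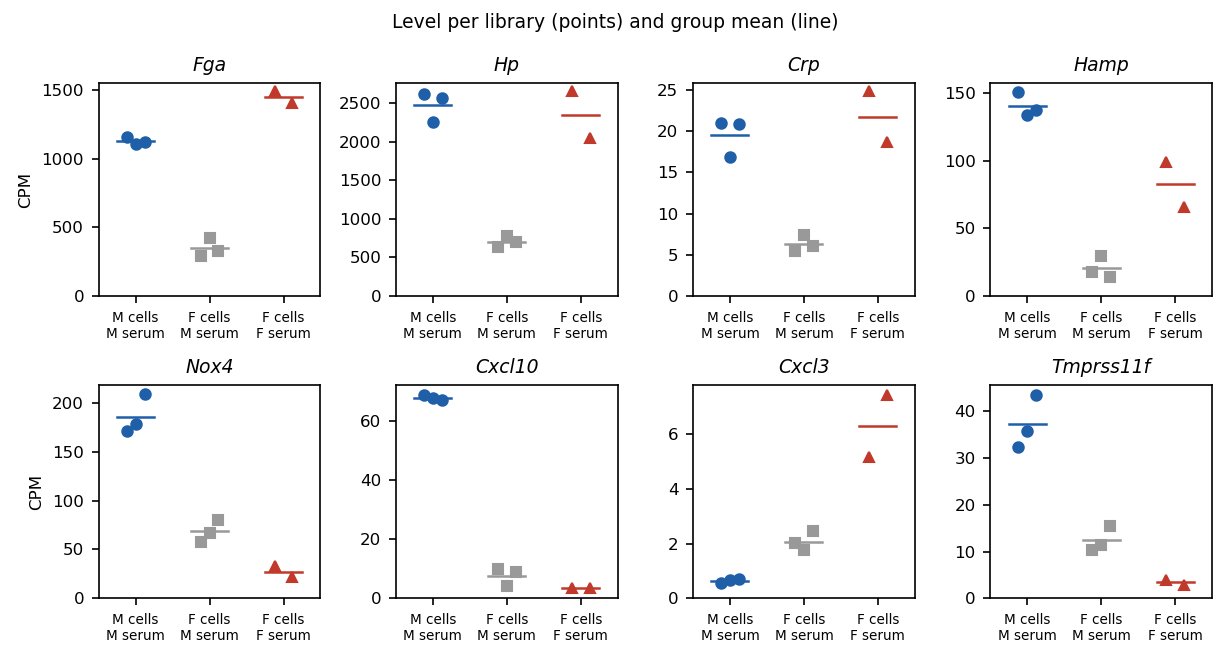
Level in CPM of 8 genes in the male stock in male serum (n = 3), the female stock in male serum (n = 3) and the female stock in female serum (n = 2), with 1 point per library and the group mean as a line. In the upper row the middle group is lowest, as for Fga at 290.6 to 424.4 CPM, and in the lower row it lies between the others, as for Nox4 at 57.8 to 80.2 CPM.

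Among genes outside the acute phase list, Id1, a BMP-responsive inhibitor of differentiation, had 23.9, 24.1 and 24.5 CPM in the male group and 19.9 and 20.3 CPM in the female group, and 5.25, 6.56 and 4.91 CPM in the female stock in male serum. Its matched difference was 0.27 ± 0.188 (adjusted p 0.306), which passed in a fit of only the matched groups (adjusted p 0.0192). Of the 25 iron and BMP genes, 5 were higher and 3 lower in the matched comparison (15.9% and 17.9% of all genes were). In the stock term 13 were higher and 3 lower (17.8% and 19.5% of all genes were). In the serum term 2 were higher and 8 lower (3.99% and 5.04% of all genes were). The matched count of higher genes was 8 without the low-count filter and 10 in a fit of only the matched groups. Bmp6 (0.94) and Bmp2 (0.75), the ligands that drive hepcidin, did not pass. Ndufa4l2, a mitochondrial protein induced by low oxygen, had opposed terms that left a large difference: 12.6, 12.2 and 9.31 CPM against 0.847 and 0.558 CPM (4.01 ± 0.295), on terms of 5.98 and -1.98. Arc, a synaptic immediate early gene, was opposed in the other sense (-1.80 and 2.10), and its matched value of 0.30 turned to -0.31 without female replicate 3 and passed at 1.41 without female replicate 2.

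**Figure D5:**
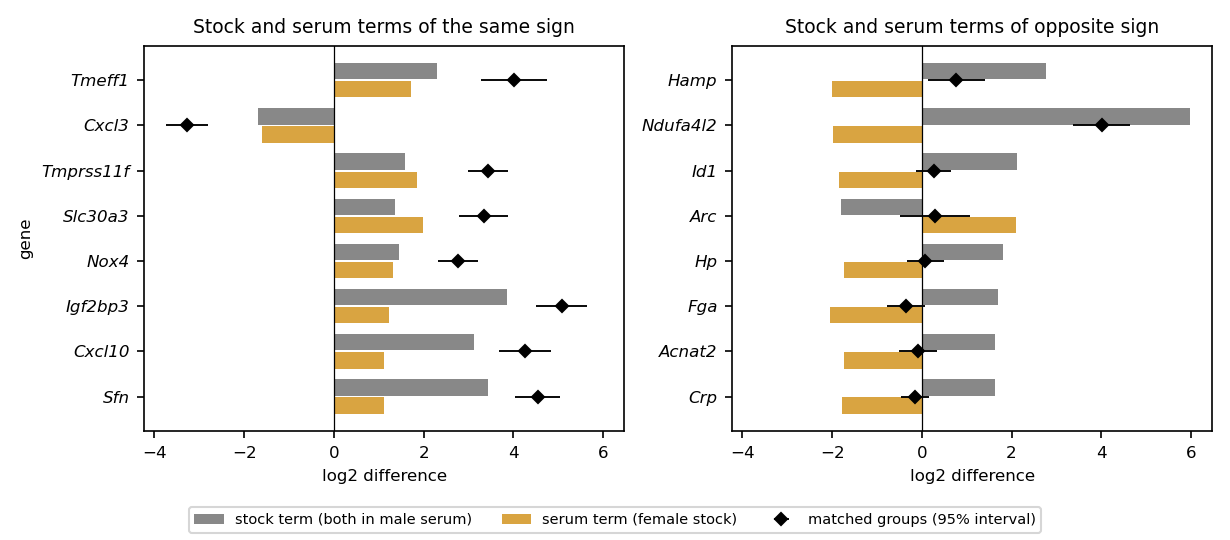
Stock term (grey bars), serum term (yellow bars) and their sum, the matched difference (black diamonds with 95% interval), on the log2 scale for the 8 genes with the largest terms of the same sign (left) and of opposite sign (right). On the right 7 of 8 diamonds lie between the bars near 0, from -0.36 to 0.77, and Ndufa4l2 lies at 4.01.

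In a smaller set both terms pointed the same way, so that the matched groups lay further apart than either step. Nox4, an NADPH oxidase that makes hydrogen peroxide and is known to be male-biased, fell in steps: 170.8, 178.0 and 208.7 CPM in the male group, 57.8, 67.2 and 80.2 CPM in the female stock in male serum, and 33.4 and 21.4 CPM in the female stock in female serum. Its terms of 1.44 and 1.32 gave 2.76 ± 0.213. Tmprss11f, a membrane protease, had terms of 1.58 and 1.85 and a sum of 3.43, and Slc30a3, a zinc transporter, 1.36 and 1.98 with a sum of 3.34. Cxcl10, an interferon-inducible chemokine, had 69.0, 67.8 and 67.3 CPM against 3.47 and 3.62 CPM (4.26 ± 0.270), though its serum term lost its call without replicate 1 of f_pHep_m_ConvR (0.91, adjusted p 0.0645). Igf2bp3 likewise lost its serum term without replicate 3 of that group (0.92, adjusted p 0.087). Sfn, the 14-3-3 sigma protein, differed by 4.54 and Tmeff1, a membrane protein, by 4.02. Cxcl3, a neutrophil attractant, was the only gene of the 8 that was lower at both steps, with 0.553, 0.687 and 0.692 CPM, then 1.75 to 2.45 CPM, then 5.14 and 7.44 CPM, a matched difference of -3.28 ± 0.218.

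Chemokines were split. Of 32 tested NF-kB targets and chemokines 10 were higher and 8 lower. For this list and those below, the shares over all genes tested were 15.9% higher and 17.9% lower. Those higher were led by Cxcl10, by Ccl5 (2.65), which attracts T cells, and by Cxcl9 (1.05), another interferon-inducible chemokine, and those lower by Cxcl3, Traf1 (-1.87), an adaptor of TNF receptors, and Cxcl2 (-1.81). Il6 (1.00), Tnf (-0.38) and Il1b (-0.14) did not pass. Without female replicate 3, 5 were higher. Of 39 interferon-stimulated genes 6 were higher and 16 lower, with 10 lower without female replicate 2. Rsad2, viperin, had 336.8, 352.3 and 266.1 CPM against 85.6 and 84.0 CPM (1.91 ± 0.179), while Mx2, an antiviral GTPase, was lower by 0.82. Of 23 genes of antigen presentation on MHC class I, 8 were higher, such as B2m (0.79), the shared light chain, and H2-T10 (1.27). The 5 lower ones were H2-T24 (-0.99), Psmb9 (-0.69), Tap1 (-0.67), Tap2 (-0.34) and Nlrc5 (-0.26), of which Psmb9, Tap1 and Tap2 cut and carry the peptides. Of 4 tested MHC class II genes only H2-DMa was called (-1.01), and not without male replicate 1 or either female replicate.

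Genes of the 2 ends of the liver lobule parted. Hepatocytes near the portal vein run the urea cycle and gluconeogenesis, and those near the central vein make glutamine and many P450s. Of 18 periportal genes 15 were higher and 2 lower (Aldh1b1, -0.51, and Pigr, -0.38), with a median of 1.63. Of 15 tested pericentral genes 4 were higher and 8 lower, with a median of -0.55. Cdh1, E-cadherin, had 45.5, 53.9 and 43.5 CPM in the male and 10.6 and 9.96 CPM in the female libraries (2.21 ± 0.127). Cps1, which makes carbamoyl phosphate for the urea cycle, had 67.8, 65.2 and 58.6 CPM against 17.76 and 17.97 CPM (1.84 ± 0.0916). Glul, glutamine synthetase of the innermost pericentral cells, had 76.8, 80.2 and 82.5 CPM against 179.2 and 151.1 CPM, and Cyp2a5, a coumarin hydroxylase, 27.2, 30.0 and 28.1 CPM against 151.2 and 111.3 CPM. Cyp1a2 (1.25), Cyp2e1 (1.13), Slc1a4 (0.64) and Cyp27a1 (0.35), of the same list, were higher. Without male replicate 1 or female replicate 2, 0 periportal genes were lower.

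Gluconeogenic enzymes were among the higher genes. Pck1, the first enzyme of the pathway, had 15.9, 15.4 and 17.5 CPM against 4.19 and 5.07 CPM (1.81 ± 0.132), and G6pc, the last enzyme, differed by 2.21. Of the 22 genes of glucose and glycogen handling 9 were higher and 5 lower, among the latter Foxo1 (-1.01), a transcription factor that insulin restrains, Ppargc1a (-0.79), a coactivator of the pathway, and Ppp1r3c (-0.54), which promotes glycogen storage. The lower count was 3 without female replicate 2. Amino acid enzymes were higher in 16 of 37 and lower in 6. Sds, serine dehydratase, had 4.03, 3.90 and 3.66 CPM against 0.207 and 0.491 CPM (21.3% of its exons overlap another gene), and Arg1, arginase of the urea cycle, differed by 1.73. Of 24 genes of bile acid handling 10 were higher and 4 lower. Slc10a1, the sodium-dependent bile acid importer, differed by 1.86 and Slco1a1, an organic anion importer, by 2.59. The lower ones were Klb (-1.06), co-receptor of FGF15, Abcc4 (-0.94), Abcb11 (-0.85), the bile salt export pump, and Nr5a2 (-0.45).

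Of 17 genes of the growth hormone pathway itself 6 were higher and 6 lower, with a median of 0.02 from genes going both ways. Ghr, the receptor, had 124.2, 126.1 and 128.3 CPM in the male and 191.4 and 153.8 CPM in the female group (-0.45 ± 0.102), a call that was lost without female replicate 2 (-0.29, adjusted p 0.0814). Stat5a and Stat5b, the signal transducers, were lower by 0.87 and 0.27. Socs2, a feedback inhibitor that growth hormone induces, had 10.8, 11.6 and 12.4 CPM against 24.5 and 17.9 CPM, with 15.8 to 16.4 CPM in the female stock in male serum. Cish, a like inhibitor, did not pass (0.17), on terms of -0.55 and 0.72 that were both called. Igf1, the growth factor the hormone induces in liver, had 496.3, 479.0 and 520.5 CPM against 440.1 and 362.4 CPM (0.31 ± 0.0811), and lost its call without female replicate 3 (0.18, adjusted p 0.150). Bcl6, a repressor of female-biased genes, was lower (-0.34, adjusted p 0.0419) but lost that call without male replicate 1 or 3 or either female replicate (adjusted p 0.111 to 0.160). Igfbp4, an IGF-binding protein, was lower by 1.27 and Igfbp2 higher by 1.00.

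Lipid genes did not move as a block, and the shares over all genes tested were 15.9% higher and 17.9% lower. Of 34 targets of PPAR-alpha, the receptor for fatty acids, 7 were higher and 9 lower, with a median of -0.04. Fabp1, the fatty acid carrier of hepatocytes, had 59.0, 56.7 and 62.1 CPM against 8.43 and 6.90 CPM (2.95 ± 0.110). The thioesterases Acot1, Acot2, Acot3 and Acot4, which free fatty acids from coenzyme A, were all lower, by 2.90, 1.91, 3.08 and 1.00; Acot1 had 4.46, 3.65 and 5.10 CPM against 34.2 and 31.4 CPM. The lower count was 5 without female replicate 2, and without male replicate 2 or female replicate 3 the higher count was 4. Of 25 genes of fatty acid and triglyceride synthesis 6 were higher and 6 lower, with Plin4, a lipid droplet coat protein, at 1.87 and Acacb, an acetyl-CoA carboxylase, at -1.04. Of 21 genes of cholesterol synthesis 4 were higher and 6 lower, none by more than 0.60 in size except Insig1 at 0.61, which holds the pathway back. Both counts were 1 without female replicate 2, and the lower count was 2 or 3 without male replicate 1, male replicate 2 or female replicate 3.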

How the data were processed

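Stranded, ribosomal RNA-depleted libraries of total RNA were sequenced in paired reads of 100 cycles, per the labels' protocols. The authors aligned reads with STAR 2.4.0i to mm10, per the submitters' processing notes, and deposited unnormalised counts per gene for 38087 Ensembl genes. Which program counted the reads, and on which annotation and strand setting, was not given in the sources used here. Of the columns 2 share 1 sample name and were not used. Symbols, biotypes and coordinates came from GENCODE M21 (36308 genes matched), and promoter windows from RefSeq, GRCm38.p6.

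The 13 libraries of 5 groups were fitted in 1 model (R 4.3.3, edgeR 4.0.16: filterByExpr with a minimum count of 10, TMM, quasi-likelihood F test, two-sided, 8 residual degrees of freedom). P-values were adjusted by Benjamini-Hochberg over 17405 genes, of which 16403 are autosomal and described here. The common biological coefficient of variation was 9.02%. On simulated counts with the sizes of the matched groups, 61% of genes changed by 0.5 and 93% of those changed by 1 on the log2 scale were recovered, with 0 wrong signs. No pair of libraries of a group agreed within sampling noise (chi-square per degree of freedom 5.46 to 53.4). The values differed by group: 5.46 to 8.74 in m_pHep_m_ConvR, 34.2 in f_pHep_f_ConvR and 21.5 to 53.4 in f_pHep_m_ConvR. The fit shares 1 estimate of spread per gene over all groups, so it does not describe each group by itself. Intervals of count ratios are 95% exact binomial (Clopper-Pearson) intervals, and folds against 0 use a floor of 3 counts over the group. Both cover counting error only.

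Genes were named by rule: up to 12 per direction with the largest called difference, among genes averaging 50 counts or more whose groups did not overlap; up to 4 called members of each list with the largest size; the 8 genes with the largest called terms of the same and of opposite sign; and 14 fixed genes. Other list members named beside these were chosen after their values were seen, and some members are not reported here. The samples, members and lists were chosen with earlier results of these data known. Of 1166 list memberships 1140 matched by symbol and 19 by gene ID. Alternatives were DESeq2 1.42.0, other scalings and filters, a fit of only the matched groups, a replicate block and leaving out each library.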

Additional observations from a re-analysis of the deposited data

How the results depend on the processing

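The count of called autosomal genes lay between 3685 and 4650 when 1 matched library was left out (1802 to 2334 higher, 1883 to 2361 lower), and the lowest total came without female replicate 2. Leaving out 1 library of f_pHep_m_ConvR gave 933 to 1597 calls in the serum term (429 to 759 higher, 504 to 838 lower). With libraries scaled by their totals alone 4594 genes were lower. RLE scaling (5498), no low-count filter (5463), a mean of at least 1 CPM (5090), DESeq2 (5602) and a fit of only the matched groups (5891) kept the total within 1.5 times. Signs turned for 3 genes that were not called: Arc (-0.31 to 1.41 when 1 matched library was left out), Hp (-0.031 by library totals and -0.104 to 0.277 with 1 library left out) and Crp (-0.348 to 0.066). The cause of these changes was not tested. The replicate numbers are not said to pair the samples, and only numbers 2 and 3 occur in both groups. Same-numbered libraries deviated from their group means with correlations of -0.026 and -0.005. The deviations of the 2 female libraries mirror each other, so these values cannot decide whether the numbers pair. A replicate block gave 5259 calls (2473 higher, 2786 lower). With 2 female libraries the spread in that group is poorly known. Counts of 0 do not show a level of 0, and folds against them rest on a floor of 3 counts.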

Other observations

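Genes of the cytoskeleton, matrix and YAP signalling, which rise as hepatocytes spread on plastic, were higher in 19 of 38 tested members and lower in 5, or in 3 without female replicate 2. Tubb2b, a beta tubulin, had 89.1, 85.2 and 99.6 CPM in the male stock in male serum and 12.2 and 10.7 CPM in the female stock in female serum (2.99 ± 0.133). Ankrd1, a YAP target, had 47.7, 50.9 and 44.6 CPM against 15.5 and 15.6 CPM, and Vim, vimentin, differed by 1.38. Actb (-0.31) and Actg1 (-0.37), the cytoplasmic actins, were lower. Of 12 tested genes of fetal liver and progenitors, 4 were higher and 3 lower. Cd24a, a glycoprotein of immature and epithelial cells, had 24.7, 24.4 and 24.1 CPM against 0.867 and 1.43 CPM, a log2 difference of 4.42 ± 0.274, and Epcam, an epithelial adhesion protein, differed by 2.45. Ccnd1, cyclin D1, stood at 4.79, 5.55 and 4.96 CPM in the male and at 24.3 and 19.5 CPM in the female libraries (-2.10 ± 0.165), with a serum term of -0.00. Of 36 cell cycle genes 5 were higher and 11 lower, beside 15.9% and 17.9% of all genes tested. Without female replicate 2 only 1 was higher, and without female replicate 3 only 7 were lower. Mki67, a proliferation marker, was at 2.16 CPM or less in the male libraries and at 3.78 and 3.39 CPM in the female ones. Its call was lost without male replicate 1 (-0.84, adjusted p 0.0672) and without female replicate 2 (-0.89).

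Of 20 tested targets of hypoxia and p53 9 were higher, 7 lower and 4 not called. The 9 higher ones, read after their values were seen, are known from the hypoxia response, such as Bnip3, a mitophagy receptor (147.7, 172.1 and 130.6 CPM against 58.9 and 49.9 CPM), Adm, adrenomedullin (1.32), and Ankrd37 (2.22). Another of them, Ndrg1, was not called without female replicate 2 (0.75). The lower ones were the p53 targets Phlda3, Zmat3, Sesn1, Trp53inp1, Ccng1 and Mdm2 (-1.01 to -0.47) and Egln3 (-0.48), an oxygen sensor of the hypoxia part of the list. Of 25 genes of the unfolded protein and integrated stress responses 13 were higher and 5 lower, led by Chac1, which degrades glutathione (1.10), and Sesn2, an inhibitor of mTORC1 (-1.12). Of 17 NRF2 targets 8 were higher, such as Nqo1, a quinone reductase (0.74), and 3 lower. Of 8 targets of the aryl hydrocarbon receptor 4 were higher and 1, Tiparp (-0.35), lower. That lower call was lost without male replicate 1, male replicate 3 or female replicate 3, and 2 were lower by library totals. Clock genes were lower in 10 of 21 and higher in 1. Per2, a repressor of the clock, had 4.12, 4.62 and 4.27 CPM against 12.6 and 11.3 CPM (-1.46 ± 0.151), on terms of -0.464 and -0.996. The lower count was 6 without male replicate 1 and 4 without female replicate 2, and the higher count was 0 by library totals and without male replicate 3 or either female replicate. Glucocorticoid targets were split, with 6 of 16 higher (3 without female replicate 3), such as Tat, tyrosine aminotransferase (1.65), and 5 lower (3 without female replicate 2), among them Angptl4, a lipase inhibitor, at -0.70, which lost its call without female replicate 2 (-0.40, adjusted p 0.0959). Immediate early genes were higher in 7 of 23, or in 3 without female replicate 3, with Ier3 at 1.38, and lower in 2 (Btg2 and Klf6), or in 1 without male replicate 1, male replicate 3 or female replicate 3. Of 71 cytosolic ribosomal protein genes 8 were higher and 1 lower, below the shares of all genes tested. Rpl26 stood out at 1.11, with 176.4, 163.9 and 169.0 CPM against 75.5 and 81.7 CPM. Without female replicate 2 only 1 was higher. Of 14 nuclear-retained or non-polyadenylated RNAs 2 were higher and 1 lower, shares below those of all genes tested (15.9% and 17.9%). Over the alternatives the higher count was 1 to 3 and the lower count 0 to 4.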
